A study of Homo sapiens with 4 samples.

Results

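The chemokine receptor CCR7 and 8 other receptors that steer lymphocytes through tissues were followed in drug-resistant leukemia cells given histidine, 6-mercaptopurine (6-MP) or both. The 9 receptors were chosen by gene symbol, with the expression values of these libraries already known, so their levels are a description and no test was applied to them. Of the 9, 7 were measured (CCR7, CXCR4, CCR6, CCR9, ACKR3, S1PR1 and SELPLG) among 29833 genes in all, and CXCR5 and CXCR3 were not analysed here. Only CCR7 and CXCR4 had a mean of at least 1 FPKM (reads scaled to the length of the gene and to library size) over the libraries, which 12750 genes reached, and the other 5 measured receptors were below it.

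The cells were Reh-6-MPR, a 6-MP-resistant derivative of Reh, an established human B-cell precursor acute lymphoblastic leukemia line, labelled wild type. They had been made resistant by growth in rising amounts of 6-MP, a thiopurine that is turned into false purine nucleotides, and were kept without the drug before the experiment. For 48 h the cells received PBS as vehicle (Blank), 4 mM histidine (His), 1.0 μg/mL 6-MP (6-MP), or both agents at these amounts (His+6-MP), and the mRNA of each treatment was sequenced as 1 stranded library. Every group was the same resistant line grown in the same serum-containing medium, and no parental Reh cells were analysed here. With 1 library per treatment there is no replicate error, no p-value and no replicate check of any difference, and every interval given covers counting error only.

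Lymphocytes find their positions by reading gradients of chemokines and of the lipid sphingosine-1-phosphate with receptors that couple to inhibitory G proteins, and by rolling on vessel walls through selectins and their carbohydrate ligands. CCR7 binds CCL19 and CCL21 and guides cells into lymph nodes, and in T-cell leukemia it is known for entry of leukemic cells into the central nervous system. CXCR4 binds CXCL12 and retains B-cell precursors and leukemic blasts in the bone marrow. ACKR3 takes up CXCL12 without classical G protein signaling, CCR6, CCR9, CXCR5 and CXCR3 read other chemokines, S1PR1 drives exit from lymphoid organs, and SELPLG encodes PSGL-1, the main ligand of P-selectin.

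The depth was 12899122 reads for His+6-MP, the lowest, and 15342296 for 6-MP, 14316493 for Blank and 15486376 for His. His+6-MP nevertheless listed the most genes above 0, namely 25443 against 23635 to 23978 in the other libraries. Among the 12750 genes, the median difference of log2(FPKM + 1) was 0.13 for His+6-MP against Blank, and 639 genes were higher and 193 lower by at least 1, which is 76.8% higher among those called. Scaling by the median ratio between libraries moved this median to -0.07 and the split to 393 higher and 340 lower, or 53.6% higher. The size of a small positive difference in His+6-MP, and for some genes its sign, therefore depended on the scaling.

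The labelled cell type was checked against marker genes. All 12 measured markers of B-lineage lymphoblasts passed the minimum, and their summed level was 1899 to 2085 FPKM across libraries. None of the 12 was called in His+6-MP against Blank, where 5.01% of all genes were called higher and 1.51% lower. With 12 genes, this absence of calls says little. DNTT, the template-independent polymerase of immature lymphocytes, stood at 557 FPKM in Blank, 563 in His, 625 in 6-MP and 497 in His+6-MP. IGLL1, a surrogate light chain, stood at 304 to 331 FPKM, and CD24 at 206 to 335 FPKM with its lowest value in His+6-MP.

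Of the 9 receptors, 6 have promoter windows in RefSeq (GRCh38.p14). CXCR4 is shown, because it was by far the most abundant receptor and because NRF1, whose motif the window holds, is followed further on. RefSeq holds 3 windows for CXCR4, and only the window printed below is described. The printed window covers 234 bases at chr2:136118166-136118399 on the minus strand, written 5′ to 3′ in the direction of transcription. It ends 16 bases before the start of the gene model. It lies outside the annotated gene, on its upstream side. Capitals mark a match to the NRF1 motif CGCATGCGC, which was found on both strands at overlapping positions, and a match to the TATA box TATAAA, likewise found on both strands.

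CXCR4 promoter: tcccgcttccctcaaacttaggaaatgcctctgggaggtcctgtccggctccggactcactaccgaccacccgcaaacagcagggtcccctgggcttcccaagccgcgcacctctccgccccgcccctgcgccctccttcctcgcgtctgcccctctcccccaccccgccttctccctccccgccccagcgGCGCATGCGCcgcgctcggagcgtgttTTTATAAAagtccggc

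Among 35116 promoter windows of the same length, searched on both strands, 1.37% held the NRF1 motif and 10.5% held TATAAA. The GC box GGGCGG had 3 matches in the CXCR4 window and occurs in 40.5% of all windows, and the KLF motif CCACCC had 2 matches and occurs in 29.6%. The MYC E-box CACGTG and the FOXO motif TGTTTAC, present in 5.84% and 2.78% of windows, had no match here, and none of the matched motifs overlapped another of the 6. These matches describe the letters of the window only.

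CCR7 (ENSG00000126353, chr17:40553769-40565472, minus strand, GRCh38) was low in 3 libraries and high in the fourth. Its level was 1.67 FPKM in Blank (95% interval 1.28 to 2.15), 2.24 FPKM in His (1.79 to 2.76), 1.51 FPKM in 6-MP (1.14 to 1.95) and 17.0 FPKM in His+6-MP (15.6 to 18.5). The reads behind these levels, recovered from the steps of the deposited values, numbered 60, 87, 58 and 549. The interval of His+6-MP lay far above the other intervals, which overlapped each other.

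The difference of log2(FPKM + 1) for CCR7 was 2.75 against Blank, 2.47 against His and 2.84 against 6-MP. In reads per library total, CCR7 was 10.2 times as high in His+6-MP as in Blank (7.77 to 13.5), 7.58 times as high as in His (6.03 to 9.61) and 11.3 times as high as in 6-MP (8.58 to 15.0). A gene was called where this log2 difference was at least 1, and the share of all genes called higher was 5.01% against Blank, 4.15% against His and 4.82% against 6-MP. Since CCR7 was selected on these contrasts, nothing is read from its call.

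With either agent alone, CCR7 stood near its vehicle level. His stood at 1.34 times Blank in reads per library total (0.954 to 1.90), a log2 difference of 0.28, and 6-MP at 0.902 times Blank (0.618 to 1.32), a log2 difference of -0.09. Both intervals include 1, so a change with a single agent was not detectable at this depth. His was 1.49 times as high as 6-MP (1.05 to 2.11). Across all genes, 1.33% were called in either direction for His against Blank and 1.18% for 6-MP against Blank, and no receptor was among them.

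The level of CCR7 in His+6-MP lay 2.56 log2 units above the sum of the single-agent differences, computed as log2(FPKM + 1) in His+6-MP minus His minus 6-MP plus Blank. Among the 12750 genes, CCR7 ranked 6 from the top by the log2 difference against Blank, 19 against His and 3 against 6-MP. Among the 9997 protein-coding genes, the corresponding ranks were 3, 9 and 1. Since CCR7 was selected with these values known, its ranks are a description only. Histidine alone placed CCR7 at rank 1017 and 6-MP alone at rank 10061 of the 12750 genes, or at ranks 360 and 8353 of the protein-coding genes.

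CXCR4 (ENSG00000121966, chr2:136114349-136118149, minus strand) was abundant under every treatment. It stood at 107 FPKM in Blank (103 to 111), 111 FPKM in His (107 to 115), 106 FPKM in 6-MP (103 to 110) and 160 FPKM in His+6-MP (156 to 165). The reads numbered 3384, 3793, 3604 and 4564. The first 3 libraries had overlapping intervals, and His+6-MP stood above them.

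The log2 difference of CXCR4 in His+6-MP was 0.58 against Blank, 0.53 against His and 0.59 against 6-MP, so that it was not called. In reads per library total the ratios were 1.497 (1.43 to 1.57), 1.44 (1.38 to 1.51) and 1.51 (1.44 to 1.57). Under median-ratio scaling the log2 difference against Blank was 0.34. CXCR4 ranked 2049 of 12750 genes against Blank, and its level in His+6-MP lay 0.54 log2 units above the sum of the single-agent differences.

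Because FPKM is per gene length, the levels of both receptors can be set side by side. CXCR4 was 64.1 times as high as CCR7 in Blank, 49.5 times in His and 70.6 times in 6-MP, and 9.44 times in His+6-MP. CXCR4 thus remained the most abundant measured receptor in every library, with CCR7 next in each.

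**Figure D1:**
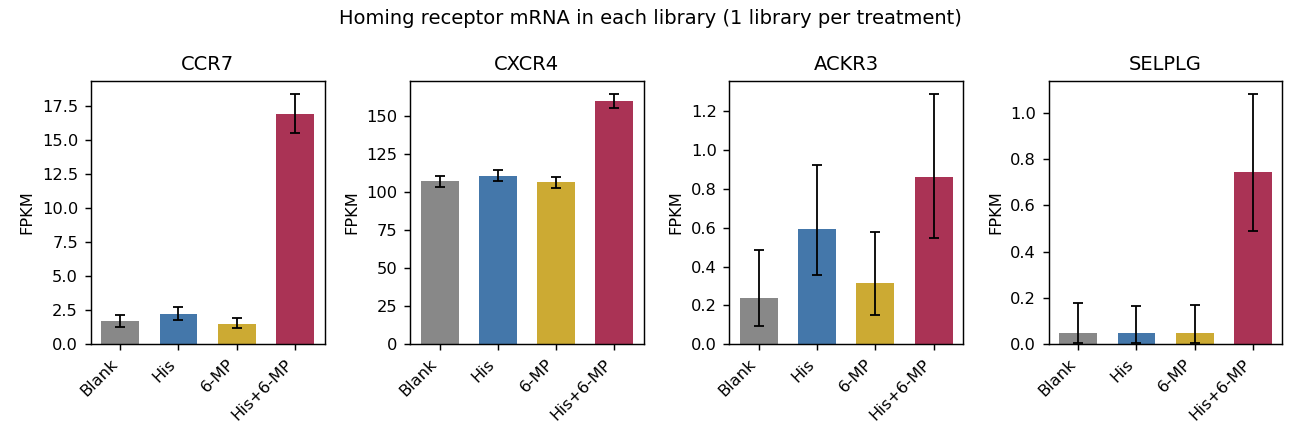
Level of CCR7, CXCR4, ACKR3 and SELPLG in FPKM (linear axes from 0, with a separate scale in each panel) in the Blank, His, 6-MP and His+6-MP libraries, 1 library each. Bars are the deposited values and lines the exact 95% counting intervals. His+6-MP has the highest bar for each receptor, from 0.745 FPKM for SELPLG to 160 FPKM for CXCR4.

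ACKR3 (ENSG00000144476, chr2:236567787-236582354, plus strand), the scavenging receptor for CXCL12, was measured with few reads. It stood at 0.236 FPKM in Blank (0.0950 to 0.487), 0.593 FPKM in His (0.357 to 0.926), 0.315 FPKM in 6-MP (0.151 to 0.579) and 0.861 FPKM in His+6-MP (0.546 to 1.29), from 7, 19, 10 and 23 reads. His+6-MP was 3.65 times as high as Blank (1.52 to 10.1) and 2.74 times as high as 6-MP (1.25 to 6.44). Against His, however, the ratio was 1.45 (0.757 to 2.82), so these libraries did not differ beyond counting error. His alone was 2.51 times as high as Blank, with an interval of 1.01 to 7.06 that barely excluded 1.

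SELPLG (ENSG00000110876, chr12:108621895-108633894, minus strand), which encodes PSGL-1, had 2 reads in each of Blank, His and 6-MP and 27 reads in His+6-MP. The levels were 0.0497, 0.0459, 0.0464 and 0.745 FPKM. In reads per library total, His+6-MP was 15.0 times as high as Blank (3.77 to 130), 16.2 times as high as His (4.07 to 141) and 16.1 times as high as 6-MP (4.04 to 139). All of these intervals exclude 1 but are wide, since each comparator rests on 2 reads. On the log2(FPKM + 1) scale, which understates the change of low genes, the differences were 0.73, 0.74 and 0.74. Among the 17083 genes below the minimum, 1.81% were higher by at least 1 on that scale in His+6-MP than in Blank, and the part that the larger number of genes above 0 in this library has in the SELPLG value was not tested.

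**Figure D2:**
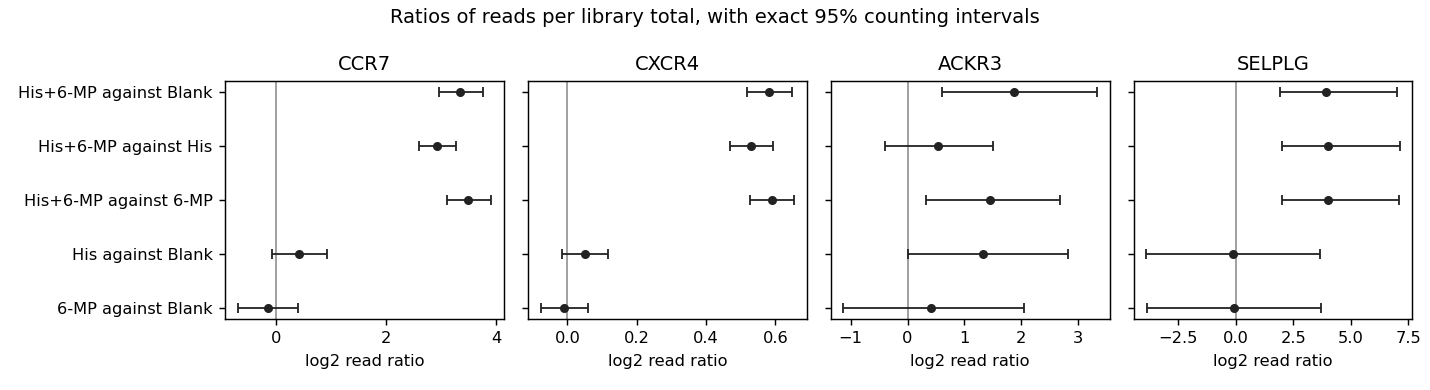
Log2 ratio of reads per library total for CCR7, CXCR4, ACKR3 and SELPLG in 5 comparisons (points) with exact 95% counting intervals (lines); the horizontal scale differs between panels and the grey line marks equal levels. For CCR7, CXCR4 and SELPLG the 3 comparisons with His+6-MP lie above 0, while the intervals of His and of 6-MP against Blank include 0.

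S1PR1, CCR6 and CCR9 were at or near the limit of detection. S1PR1 (ENSG00000170989, chr1:101236865-101243713, plus strand) had 2 reads in Blank, 0 in His, 0 in 6-MP and 3 in His+6-MP. CCR6 (ENSG00000112486, chr6:167111807-167139696, plus strand), the receptor for CCL20, had 0, 0, 1 and 3 reads. CCR9 (ENSG00000173585, chr3:45886509-45903174, plus strand), the receptor for the gut and thymus chemokine CCL25, had 1 read in Blank and 0 in the other libraries. With 3 reads taken as the most that a count of 0 allows, the limit in His was 0.0371 FPKM for S1PR1, 0.0446 FPKM for CCR6 and 0.0690 FPKM for CCR9. The exact 95% intervals in His reached somewhat higher, to 0.0456, 0.0548 and 0.0848 FPKM. Differences between treatments were not detectable for these 3 genes at this depth.

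The order of the receptors by level in His+6-MP was CXCR4, CCR7, ACKR3, SELPLG, CCR6, S1PR1 and CCR9. In this order CXCR4 and CCR7 were separated beyond counting error from each other and from ACKR3. The intervals of ACKR3 and SELPLG overlapped, at 0.546 to 1.29 and 0.491 to 1.08 FPKM, and those of CCR6 and S1PR1 overlapped as well. In Blank the order began with CXCR4, CCR7 and ACKR3. The interval of ACKR3 there (0.0950 to 0.487 FPKM) overlapped those of SELPLG (0.00602 to 0.180 FPKM), S1PR1 (up to 0.0966 FPKM) and CCR9 (up to 0.139 FPKM). SELPLG in Blank could not be separated from S1PR1, CCR6 or CCR9 by its interval either.

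Other receptors that place lymphocytes in tissues were read next, from lists put together with the results of these libraries known. Among 13 measured positioning receptors outside the chemokine family, 6 passed the minimum. In His+6-MP against Blank 1 was called higher and none lower, where 5.01% of all genes were called higher and 1.51% lower. Of the 6, 5 were above 0, where 63.6% of all genes were, with a median log2 difference of 0.59 beside 0.13 over all genes. Under median-ratio scaling 4 of 6 were above 0 with a median of 0.37, and 5458 of 12687 genes were above 0. S1PR2, a sphingosine-1-phosphate receptor that confines B cells to germinal centers, stood at 2.01, 2.41, 2.68 and 7.49 FPKM in Blank, His, 6-MP and His+6-MP. Its log2 difference was 1.49 against Blank, 1.32 against His and 1.20 against 6-MP.

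The remaining members of that list were chosen after their values were seen. S1PR4, the most abundant of them and a lymphoid sphingosine-1-phosphate receptor, stood at 55.5, 59.5, 53.3 and 80.5 FPKM, a log2 difference of 0.53 against Blank (0.29 under median-ratio scaling). P2RY8, a receptor that confines B cells in follicles, was the one with a lower level, at 53.3, 54.8, 49.8 and 32.1 FPKM, a log2 difference of -0.72 against Blank. The positioning receptors thus did not all differ in the same direction.

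None of 9 measured other chemokine receptors reached the minimum. CCR10 stood at 0.720, 0.592, 0.647 and 1.42 FPKM. CXCR2, the receptor for neutrophil-attracting chemokines, was chosen after its values were seen. It had 4, 4, 2 and 123 reads, or 0.0869, 0.0804, 0.0406 and 2.97 FPKM, and was 34.1 times as high in His+6-MP as in Blank (13.0 to 127). Its low levels without the combined treatment kept its mean below 1 FPKM.

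Of 13 ligands of the receptors, 4 were measured and the others were not analysed here. None of the 4 passed the minimum, and ADM, a peptide bound by ACKR3, had the highest mean over the libraries, at 0.871, 0.4999, 0.421 and 0.900 FPKM. CCL25, the ligand of CCR9 (chosen after its values were seen), stood at 0.453, 0.676, 0.292 and 1.005 FPKM and was above ADM in His and His+6-MP.

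The genes that make or remove sphingosine-1-phosphate gave no calls, where 5.01% of all genes were called higher and 1.51% lower. With so few genes, the absence of calls in this list and the next says little. All 9 were measured and 3 passed the minimum, with 1 of 3 above 0 (63.6% of all genes were) and a median log2 difference of -0.21 against Blank. SGPL1, the lyase that degrades the lipid, stood at 8.49, 8.56, 8.26 and 10.7 FPKM. No call was made either among the 9 of 14 PSGL-1 sulfation and glycosylation genes that passed the minimum. Of these 9, 8 were above 0 with a median of 0.26 (6 of 9 and 0.08 under median-ratio scaling, where 5458 of 12687 genes were above 0). GALNT2, which starts O-linked chains, went the other way at 62.9, 62.8, 63.3 and 46.1 FPKM, a log2 difference of -0.44. FUT7, the fucosyltransferase that completes selectin ligands (chosen after its values were seen), had 2, 0, 4 and 0 reads.

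The machinery downstream of the receptors gave no calls, which with few genes and shares of 5.01% higher and 1.51% lower among all genes says little about these lists. Among 8 desensitization genes that passed the minimum, none was called and the median log2 difference was 0.08 against Blank, turning to -0.15 under median-ratio scaling. GRK2, a kinase that phosphorylates active receptors, stood at 134, 140, 131 and 113 FPKM. Among 25 of 26 G protein and migration signaling genes that passed the minimum, none was called and the median was 0.10, turning to -0.14 under median-ratio scaling. GNB1, a G protein beta subunit, stood at 97.8, 97.5, 96.2 and 85.2 FPKM.

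Of 18 transcription factors linked to homing receptor genes, 16 passed the minimum. In His+6-MP against Blank 1 of 16 was called higher and none lower, a share near the 5.01% of all genes called higher. Of the 16, 8 were above 0, beside 63.6% of all genes, and the median log2 difference was 0.06 (-0.10 under median-ratio scaling). The factor called was ID2, an inhibitor of E proteins, at 1.23, 1.11, 0.854 and 7.18 FPKM, a log2 difference of 1.87. RELB, a noncanonical NF-κB subunit chosen after its values were seen, stood at 1.74, 1.73, 1.66 and 4.42 FPKM, with differences of 0.99 against Blank and 1.02 against 6-MP.

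FOXO1, an activator of CCR7 in lymphocytes, stood at 18.5, 20.3, 20.0 and 27.4 FPKM, a log2 difference of 0.55 against Blank (0.31 under median-ratio scaling) that was not called. KLF2, known as an activator of S1PR1, had only 10, 10, 5 and 14 reads. NRF1, whose motif is in capitals in the CXCR4 window above, stood at 9.67, 10.7, 8.88 and 6.89 FPKM, a log2 difference of -0.44, and was chosen after its values were seen. MYC, a growth regulator followed as a reference point, stood at 70.4, 64.9, 65.0 and 17.7 FPKM and was called lower, at -1.93, where 1.51% of all genes were called lower.

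The 5 protein-coding genes closest to CCR7 were found by the Euclidean distance over the log2 differences of His, 6-MP and His+6-MP from Blank, that is over 3 values that share the Blank library. ITGB2, the beta chain of leukocyte integrins, was nearest at a distance of 0.17, with 0.529, 0.733, 0.503 and 8.42 FPKM. CD82, a tetraspanin, followed at 0.24 with 1.14, 1.69, 1.13 and 11.4 FPKM, and PLEK, pleckstrin, at 0.41 with 1.57, 1.97, 1.505 and 12.1 FPKM. PLK2, a polo-like kinase, stood at 0.44 with 1.89, 1.92, 1.70 and 14.2 FPKM. RGS16, a regulator that shortens G protein signaling, stood at 0.45 with 2, 3, 3 and 142 reads. By this selection all were low in the first 3 libraries and higher in His+6-MP, so the shared pattern is not a result. ITGB2 and RGS16 were below 1 FPKM in each of the first 3 libraries and passed the minimum only through His+6-MP.

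Markers of other cell types also differed in the His+6-MP library. The summed level of 6 measured myeloid markers was 32.0, 34.4, 30.1 and 62.9 FPKM in Blank, His, 6-MP and His+6-MP. Of these, ITGAM, which encodes the integrin chain CD11b, stood at 3.14, 3.16, 3.06 and 19.2 FPKM. It was called higher (2.28), where 5.01% of all genes were, and with so few markers this call says little about the list. MPO, the granule peroxidase, stood at 27.7, 30.5, 26.4 and 41.0 FPKM and was not called. The other 4 were below the minimum and are given in reads (chosen after their values were seen). CSF1R had 46, 50, 34 and 83 reads and LYZ had 8, 1, 3 and 31 reads, while the monocyte markers CD14 and FCN1 had 4, 1, 1 and 1 reads and 0, 1, 0 and 0 reads.

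T-cell markers, whose source cells carry CCR7 and SELPLG, summed to 0.651, 0.599, 0.784 and 2.67 FPKM over 4 of 8 genes. CD247, a signaling chain of the T-cell receptor, stood at 0.606, 0.496, 0.679 and 2.36 FPKM, and the other 3 were at or below 0.229 FPKM in every library. CD247 was called higher (1.07), where 5.01% of all genes were, but it passed the minimum only through its level in His+6-MP. Nothing is read from its call. Mature naive B cell markers summed to 13.7, 13.6, 12.8 and 21.2 FPKM over 3 of 5 genes, with IGHM at 8.81, 8.56, 6.97 and 14.2 FPKM and IGHD at 4.87, 5.08, 5.79 and 6.84 FPKM. MS4A1, which encodes CD20 (chosen after its values were seen), had 0, 0, 0 and 7 reads.

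Plasma cell markers summed to 122, 126, 123 and 99.0 FPKM over 5 genes, with XBP1 at 121, 124, 121 and 91.2 FPKM making up most of the sum. The other 4 had their highest levels in His+6-MP and were chosen after their values were seen. SDC1 was called higher (1.68), where 5.01% of all genes were, and with so few markers this call says little about the list. IRF4 had 11, 19, 17 and 62 reads, PRDM1 had 5, 5, 5 and 34 reads and TNFRSF17 had 0, 0, 0 and 2 reads. Markers of NK cells summed to 1.74, 2.83, 1.21 and 6.20 FPKM over 3 of 5 genes, all chosen after their values were seen. NKG7 stood at 1.74, 2.80, 1.13 and 3.62 FPKM and was not called against Blank. PRF1 had 0, 1, 3 and 83 reads, and GNLY had 0, 0, 0 and 1 reads. Erythroid markers summed to 0.273, 0.191, 0.159 and 0.492 FPKM over 3 of 5 genes. Stromal markers summed to 8.69, 9.39, 8.68 and 14.4 FPKM over 2 of 5 genes, with PDGFRB at 7.82, 8.34, 7.66 and 12.3 FPKM. Median-ratio scaling lowered the log2 difference against Blank from 0.55 to 0.31 for MPO, from 0.63 to 0.41 for IGHM, from 0.42 to 0.21 for IGHD and from 0.60 to 0.37 for PDGFRB. The part of these markers in the receptor values was not tested, and in bulk RNA a larger share of cells with a transcript and more transcript per cell cannot be told apart.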

How the data were processed

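RNA of 4 cultures of Reh-6-MPR cells was sequenced from TruSeq stranded mRNA libraries, 1 per treatment. Per the labels, the submitters' processing notes name Trimmomatic, HISAT2, HTSeq, Cufflinks and GRCh38 (hg38), and the roles, the versions and the strand setting are not given in the sources used here. The authors deposited FPKM values per gene, made by a service company. FPKM divides by gene length and library reads, so abundant genes that differ shift all others, and overlapping genes may share reads.

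From these values, reads were recovered as whole multiples of the smallest step (29789 of 29833 genes whole within 0.01 read), with exact Clopper-Pearson 95% intervals for reads and read ratios. The steps fix reads only up to a common multiple for each gene, and the implied length of ACKR3 (2070 bases) and SELPLG (2811 bases) differs from GENCODE 29 (2258 and 2494 bases). Differences of log2(FPKM + 1) were called at 1 or more, for genes averaging 1 FPKM or more. DESeq2, used by the authors, was not repeated without replicates. The steps were tested on simulated data.

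The members, gene lists and alternatives were chosen with earlier results of these data known. Named were all members, the called genes of each list (at most 4) or else its most abundant gene, the 5 genes nearest to CCR7, MYC, KLF2, FOXO1, the 3 highest lymphoblast markers and other markers with a mean of at least 5 FPKM. A further listed gene is not reported here. Any other gene named, including CD247 and SDC1, was chosen after its values were seen. The alternatives were a pseudocount of 0.1, no minimum, a minimum of 5 FPKM, median-ratio and TPM scaling, a threshold of 1.5, protein-coding genes only and recovered reads (floor 3). Values were computed with pandas 2.3.3 and numpy 2.4.6, intervals with scipy 1.17.1 and figures with matplotlib 3.10.9 (Python 3.11.15).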

Additional observations from a re-analysis of the deposited data

Results flagged for a closer look

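CCR7 was picked out because the log2 difference that went with 6-MP had opposite signs without and with histidine. Without histidine the difference of 6-MP from Blank was -0.09, which lies within counting error, so no direction is established there. With histidine the difference of His+6-MP from His was 2.47, a gap of 2.56. Each value compares 1 library with 1 library, and the difference between them was not tested.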

How the results depend on the processing

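CCR7 was called in His+6-MP against Blank, His and 6-MP under all 8 alternatives, and no called value of a receptor changed sign. Since CCR7 was selected on these contrasts, its repeated call is a description of the processing only. At the minimum of 5 FPKM, CCR7 passed (mean 5.60 FPKM) only through its level in His+6-MP. The log2 difference of CCR7 against Blank was 3.27 with a pseudocount of 0.1, 3.20 with TPM scaling and 3.34 in recovered reads. The same alternatives gave 2.87, 2.81 and 2.92 against His, 3.41, 3.32 and 3.49 against 6-MP, and 3.01, 2.93 and 3.07 for the departure from additivity. TPM scaling called 2 receptors against Blank, adding ACKR3 (1.22), since TPM values are larger than FPKM values beside the same pseudocount. The share of all genes called higher rose as well, from 5.01% of 12750 genes to 13.6% of 17949. The difference of CXCR4 fell to 0.34 under median-ratio scaling. Genes called in either direction against Blank numbered 832, and 1513 with a pseudocount of 0.1, 303 at a minimum of 5 FPKM, 3106 with TPM scaling, 266 at a threshold of 1.5, 422 among protein-coding genes and 1446 in recovered reads. Against His the 707 calls became 1278, 264, 2819, 224, 355 and 1257, and against 6-MP the 767 calls became 1397, 269, 2902, 246, 381 and 1322. Without a minimum the counts were 1245, 1119 and 1172. The splits into higher and lower under median-ratio scaling were 346 and 294 against His (529 and 178 as reported) and 359 and 279 against 6-MP (614 and 153). S1PR2 was the single positioning receptor called against Blank, and 0 were called at a minimum of 5 FPKM or a threshold of 1.5 and 2 without a minimum or with TPM scaling. The transcription factor count of 1 became 0 at a minimum of 5 FPKM and 2 with a pseudocount of 0.1, TPM scaling or recovered reads. CXCR2 was called without a minimum and with TPM scaling. Beside these counts, the share of all genes called higher against Blank was 9.25% with a pseudocount of 0.1 and 9.21% in recovered reads. It was 3.18% without a minimum, 2.92% at a minimum of 5 FPKM and 1.69% at a threshold of 1.5. With so few genes in each list, nothing is read from these changes in count. No paired analysis was possible because the groups hold a single library each, so replicates could not be left out either. Depth limits S1PR1, CCR6, CCR9 and the comparators of SELPLG, which rest on at most 3 reads.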
